A study of Mus musculus with 16 samples.

Results

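The genes of glucose uptake, glycolysis, lactate handling and glycogen metabolism were followed in striatal astrocytes whose calcium signals had been lowered. The set held 33 named genes, chosen for the step that each serves but with earlier results of these data known. All 33 were found among the 20730 genes measured. They cover glucose transporters (2 genes), hexokinases (2), glucose-6-phosphate isomerase (1), phosphofructokinases (3), the enzymes that make their bisphosphate activator (3), aldolases and triose-phosphate isomerase (3), the later steps of glycolysis (6), lactate dehydrogenases (2), monocarboxylate transporters (3), pyruvate dehydrogenase kinases (2), glycogen phosphorylases (2) and genes of glycogen synthesis (4). The samples came from whole striata of 8 adult C57BL/6N mice. All 8 had been given an adeno-associated virus (AAV) for RiboTag, which places the ribosomal protein Rpl22 with a hemagglutinin tag in astrocytes. The 4 PMCA mice also carried an AAV for hPMCA2w/b, a human plasma membrane calcium pump that suppresses calcium signals, and the 4 control mice carried an AAV for a control protein. Each mouse gave an IP library, made from RNA precipitated with the tagged astrocyte ribosomes, and an input library, made from the cleared striatal lysate. The groups were thus PMCA IP, control IP, PMCA input and control input, with 4 libraries each. The labels do not give the promoter of either virus, the identity of the control protein, or the age in weeks.

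Glycolysis splits glucose into pyruvate in the cytosol. Hexokinase traps glucose inside the cell, phosphofructokinase sets the pace, and the later steps recover ATP and NADH. Lactate dehydrogenase turns pyruvate into lactate, which monocarboxylate transporters carry across the membrane, while pyruvate dehydrogenase kinases hold back the entry of pyruvate into mitochondria. In the adult brain, glycogen is stored mainly in astrocytes, and astrocytes are known for active glycolysis and lactate release.

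IP libraries held 48.1 to 55.1 M reads in PMCA mice and 46.8 to 58.5 M in control mice, and inputs held 32.3 to 40.9 M in PMCA mice and 33.1 to 40.2 M in control mice. All 33 genes had enough reads to be tested in every comparison. All 18 astrocyte markers were higher in IP than in input in both treatments, with a median log2 fold change of 3.08 in PMCA mice and 3.07 in control mice, which matches the labelled fraction. All 12 microglial and all 12 projection neuron markers were lower. Astrocyte markers were not the only ones higher in IP. Of 12 interneuron markers, 7 were higher and 2 lower in PMCA mice, and 11 and 1 in control mice. Their median log2 fold changes were 1.45 and 1.71. Of 10 oligodendrocyte markers, 7 were higher and 0 lower in PMCA mice, and 5 and 1 in control mice. Of 5 precursor markers, 3 and 5 were higher. A gene higher in IP is thus not shown to be astrocytic. Rpl22, the gene whose product carries the tag, had 289, 261, 299 and 257.3 CPM (reads scaled to library size) in PMCA IP libraries, against 857, 968, 969.6 and 786 in control IP libraries. It had 108, 111, 106 and 96.4 CPM in PMCA inputs, against 218, 200.4, 180.3 and 178 in control inputs. The groups did not overlap in either fraction, so the pump and the lower Rpl22 level cannot be told apart in any comparison of PMCA with control mice. In bulk RNA of this kind, fewer cells of a type and less RNA per cell cannot be told apart either.

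The first comparison asked which genes of glucose use differed on astrocyte ribosomes when calcium signals were suppressed. Of the 33 genes 10 fell in PMCA IP libraries and 2 rose. Of the 10 that fell, 8 encode enzymes of the stretch from aldolase to lactate dehydrogenase, namely Aldoa, Tpi1, Pgk1, Pgam1, Eno1, Eno2, Pkm and Ldha, and the other two are Gpi1 and the glycogen branching enzyme gene Gbe1. The 2 that rose were the hexokinase gene Hk2, by 1.06 on the log2 scale, and the glycogen synthase gene Gys1, by 0.26. The genes that fell had log2 fold changes between -0.53 (Gbe1) and -0.21 (Pgk1). Genes were called at an adjusted p under 0.05 (limma on the deposited log2 CPM, Benjamini-Hochberg over 15748 genes, n = 4 and 4). Among all genes tested, 10.1% fell and 9.54% rose, so 10 falls in 33 genes are a larger share (30.3%) than in the background and 2 rises (6.06%) are a smaller one. Since the set was chosen with earlier results known, these shares are a description and not a test. The median log2 fold change was -0.14 over the 33 genes and -0.012 over all genes. The 33 genes together took 13927 to 16291 CPM in PMCA IP libraries, against 15762 to 18180 in control IP libraries, and these ranges overlapped.

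**Figure D1:**
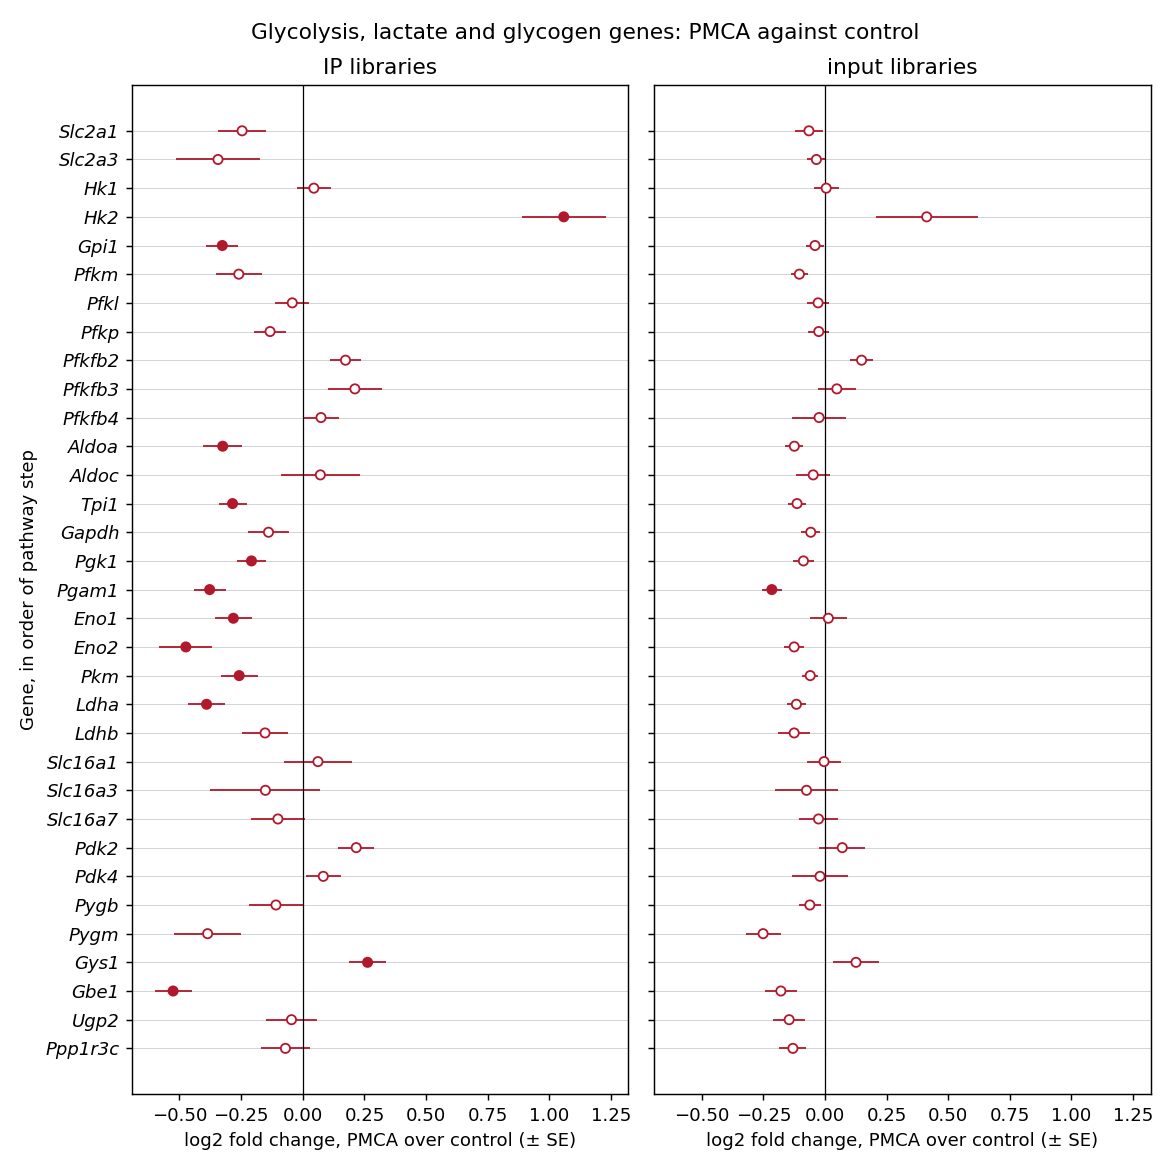
Log2 fold change of each of the 33 genes (rows, in order of pathway step), PMCA over control, in IP libraries (left panel) and inputs (right panel). Points are estimates and bars are ± SE with 4 libraries per group; filled points passed an adjusted p of 0.05. In the IP panel 10 filled points lie left of 0 and 2 right of 0, and in the input panel 1 lies left of 0.

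The falls were seen beside other shifts between the IP groups. Summed over 12 general neuronal markers, PMCA IP libraries held 2682 to 3380 CPM, against 3389 to 4324 in control IP libraries, and 8 of the 12 fell. Summed over 12 interneuron markers they held 1067 to 1190 CPM, against 1329 to 1379, and 8 of the 12 fell. The markers of projection neurons, the main neurons of the striatum, summed to 2691 to 4101 CPM in PMCA IP libraries, against 2540 to 4548 in control IP libraries, and 1 of the 12 fell. None of 10 oligodendrocyte and 5 precursor markers passed in limma, with 0 and 1 at an unadjusted p under 0.05. The sums over 18 astrocyte markers were 53624 to 64656 CPM in PMCA IP libraries and 41703 to 54244 in control IP libraries, with 4 markers higher and 1 lower. Microglial markers summed to 86.0 to 138.5 CPM in PMCA IP libraries, against 67.3 to 86.7, and 5 of 12 rose; endothelial and mural markers summed to 102.6 to 112.8 CPM, against 82.8 to 91.3, and 5 of 12 rose and 2 fell. No marker of these lists was at 0 in all libraries of a group. The part that any of these shifts has in the values of the glycolytic genes was not tested.

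Upstream sequences of 3 genes that changed in IP are shown because they bracket the pathway: Hk2 at its entry, which rose, and Pgam1 and Ldha near its end, which fell. The sequences are the 250 bases before the start site that RefSeq gives on GRCm38.p6, read 5′ to 3′ on the gene's strand, with every ACGTG or GCGTG on either strand in capitals (neighbouring matches can overlap). These letters are the core of the hypoxia response element, which hypoxia-inducible factors recognise, and ACGTG is also contained in the CACGTG E-box. Hk2 is at chr6:82774455-82774704 on the minus strand, Pgam1 at chr19:41911621-41911870 and Ldha at chr7:46845554-46845803, both on the plus strand. The Ldha start site used lies 3530 bases inside the annotated gene. Of the other windows counted below, those of Pfkfb2 (13205 bases) and Pfkfb4 (3630) lie farthest from the annotated gene start. The rest lie within 694 bases of it (Gapdh).
Hk2: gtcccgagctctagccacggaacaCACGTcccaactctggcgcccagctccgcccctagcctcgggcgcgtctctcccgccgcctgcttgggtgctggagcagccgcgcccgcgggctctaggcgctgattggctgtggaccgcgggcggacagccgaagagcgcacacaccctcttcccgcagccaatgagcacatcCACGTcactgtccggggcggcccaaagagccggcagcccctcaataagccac
Pgam1: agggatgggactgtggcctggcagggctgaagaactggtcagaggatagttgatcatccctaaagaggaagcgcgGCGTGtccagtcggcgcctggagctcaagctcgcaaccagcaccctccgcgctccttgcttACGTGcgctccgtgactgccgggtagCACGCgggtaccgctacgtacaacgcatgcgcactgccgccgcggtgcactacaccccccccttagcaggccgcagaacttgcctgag
Ldha: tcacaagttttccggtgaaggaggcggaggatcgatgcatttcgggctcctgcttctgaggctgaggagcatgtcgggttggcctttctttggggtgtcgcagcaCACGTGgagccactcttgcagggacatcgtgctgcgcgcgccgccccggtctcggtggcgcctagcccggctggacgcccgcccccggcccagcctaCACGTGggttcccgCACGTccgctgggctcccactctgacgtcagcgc
The Hk2 window held 2 matches, both ACGTG, the Pgam1 window 1 ACGTG and 2 GCGTG, and the Ldha window 5 of ACGTG. Each CACGTG reads the same on both strands and counts as 2 matches, so the Ldha count exceeds its marked stretches. Windows of 250 bases were at hand for 31 of the 33 genes. ACGTG was found in 14 of them (45.2%), against 16.5% of 27025 promoters of the same length. GCGTG was found in 16 (51.6%), against 28.3% of all promoters. One or the other was in 23 of the 31 windows (74.2%), against 38.6% of all promoters. Both motifs hold the letters CG, and the promoters compared were matched for length but not for base composition. GC content of the 31 windows was 36.4% (Pfkm) to 76.4% (Slc16a1), and its part in these shares was not tested. Of the 12 genes that changed in IP, 5 held one or the other (41.7%), near the share of all promoters, and 7 held neither (Gpi1, Aldoa, Tpi1, Eno2, Pkm, Gys1 and Gbe1), so the 3 windows shown do not stand for the 12. A match is a description of these letters, and no binding was measured.

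At the entry of the pathway, 1 of the 2 hexokinase genes rose. Hk2 (chromosome 6, 82725025 to 82774454, mm10) encodes a hexokinase that is inducible in many tissues. It had 9.07, 9.27, 11.3 and 12.9 CPM in PMCA IP libraries, against 3.85, 4.89, 5.33 and 6.50 in control IP libraries. Every PMCA library lay above every control library, and the mean was 2.08 times as high (log2 fold change 1.06, SE 0.17, adjusted p = 0.00428). Hk1, the main hexokinase of brain, had 488 to 564 CPM in PMCA IP libraries and 508 to 531 in control IP libraries (log2 fold change 0.045, SE 0.068, adjusted p = 0.675). The control range lay inside the PMCA range. The glucose transporter genes Slc2a1 (GLUT1, of endothelium and astrocytes) and Slc2a3 (GLUT3, of neurons) had log2 fold changes of -0.25 (adjusted p = 0.104) and -0.34 (adjusted p = 0.175). Neither passed. For Slc2a3 the PMCA IP libraries had 60.3, 62.6, 61.0 and 101 CPM, with the fourth apart from the others, against 109.9, 82.0, 79.9 and 83.7 in control IP libraries, with the first apart. Without the fourth PMCA library the Slc2a3 log2 fold change was -0.52 (adjusted p = 0.00860). Leaving out the first control library instead, the highest of its group, makes the fall smaller. The fall of Slc2a3 thus depends on which library is left out, and it did not pass with all 8 mice.

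Gpi1 (chromosome 7, 34201327 to 34230336), whose enzyme converts glucose-6-phosphate to fructose-6-phosphate, had 618, 656, 656 and 632 CPM in PMCA IP libraries. It had 766, 817, 825 and 805 CPM in control IP libraries. All PMCA values lay below all control values, and the mean fell by 20.2% (log2 fold change -0.33, SE 0.064, adjusted p = 0.00859). The next enzyme, phosphofructokinase, is the main control point of glycolysis, and none of its 3 subunit genes passed the test. Pfkm, the muscle-type subunit, came closest, with 704 to 806 CPM in PMCA IP libraries and 822 to 1042 in control IP libraries (log2 fold change -0.26, SE 0.093, adjusted p = 0.0757). Pfkp, the platelet type, and Pfkl, the liver type, had log2 fold changes of -0.13 and -0.043. The 3 genes of the bifunctional enzymes that set the activator of phosphofructokinase did not pass either: Pfkfb2, Pfkfb3 and Pfkfb4 had log2 fold changes of 0.17, 0.21 and 0.074 (adjusted p = 0.0749, 0.200 and 0.515). Pfkfb3 encodes the form whose kinase activity most exceeds its phosphatase activity.

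Aldolase cuts the phosphorylated sugar into triose phosphates. Aldoa (chromosome 7, 126795234 to 126800994), the ubiquitous form, had 1464, 1523, 1558 and 1395 CPM in PMCA IP libraries, against 1827, 1803, 1848 and 1956 in control IP libraries. The groups did not overlap and the mean fell by 20.2% (log2 fold change -0.32, SE 0.079, adjusted p = 0.0202). Aldoc (chromosome 11, 78323073 to 78327781), the brain form and a marker of astrocytes, had 4912, 4626, 4376 and 3679 CPM in PMCA IP libraries, against 3641, 4716, 5138 and 3402 in control IP libraries. Those groups overlapped, with wide scatter among control mice (log2 fold change 0.071, SE 0.16, adjusted p = 0.786). Tpi1 (chromosome 6, 124810586 to 124814158), which interconverts the triose phosphates, had 449, 444, 449.6 and 432 CPM in PMCA IP libraries. In control IP libraries it had 534, 534, 549.6 and 544 CPM. The values within each group were close together, and the mean fell by 17.9% in PMCA mice (log2 fold change -0.28, SE 0.057, adjusted p = 0.00901).

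Of the 6 genes of the later steps, 5 fell, and Gapdh was the exception. Gapdh, which carries out the oxidation step, had 844 to 1013 CPM in PMCA IP libraries and 1002 to 1107 in control IP libraries (log2 fold change -0.14, SE 0.084, adjusted p = 0.270), with the low end held by the fourth PMCA mouse. Pgk1 (chromosome X, 106187100 to 106203699), the first ATP-forming enzyme, had 183, 174, 179 and 169.6 CPM in PMCA IP libraries, against 191, 208, 204 and 212 in control IP libraries. The highest PMCA value stayed below the lowest control value (log2 fold change -0.21, SE 0.058, adjusted p = 0.0325). Pgam1 (chromosome 19, 41911871 to 41918665), a phosphoglycerate mutase, had 94.7, 90.2, 90.6 and 79.6 CPM, against 111, 114, 118 and 117 CPM in control IP libraries. Its mean fell by 23.0% in PMCA mice, with no overlap (log2 fold change -0.38, SE 0.065, adjusted p = 0.00538).

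The enolase genes both fell. Eno1 (chromosome 4, 150236708 to 150248879), the ubiquitous form, had 18.2, 18.4, 18.6 and 17.5 CPM in PMCA IP libraries and 19.5, 23.0, 22.7 and 23.5 in control IP libraries (log2 fold change -0.28, SE 0.076, adjusted p = 0.0282). Eno2 (chromosome 6, 124760053 to 124769673) is the neuronal form. It had 412, 424, 408 and 433 CPM in PMCA IP libraries, against 732, 563, 493 and 567 in control IP libraries, where the first mouse stood highest. The mean fell by 28.0% (log2 fold change -0.47, SE 0.11, adjusted p = 0.0160). In the same libraries the sums of general neuronal and interneuron markers were lower, while those of projection neuron markers overlapped. The part of neuronal RNA in the Eno2 values was not tested. Pkm (chromosome 9, 59656576 to 59679372), the pyruvate kinase gene of brain and muscle, had 1303, 1339.7, 1279 and 1225 CPM in PMCA IP libraries, against 1608, 1570.3, 1508 and 1467 in control IP libraries. Its groups did not overlap (log2 fold change -0.26, SE 0.076, adjusted p = 0.0386). Eno1 has a near-identical copy, Eno1b, which the files list separately, and Aldoa, Tpi1, Gapdh, Pgk1, Pgam1, Pkm and Ldha belong to genes with many processed copies in the genome. The sources used here do not say how shared reads were counted, so the levels of these genes are uncertain to that extent.

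At the branch from pyruvate to lactate, Ldha fell and Ldhb did not pass. Ldha (chromosome 7, 46842274 to 46855627) encodes the subunit that favours lactate formation. It had 197, 192, 210.1 and 177 CPM in PMCA IP libraries, against 238, 239.6, 261 and 279 in control IP libraries. The mean fell by 23.7%, with no overlap (log2 fold change -0.39, SE 0.076, adjusted p = 0.00850). Ldhb, the heart-type subunit, had 659 to 837 CPM in PMCA IP libraries and 763 to 900.4 in control IP libraries (log2 fold change -0.15, SE 0.093, adjusted p = 0.271). The 3 monocarboxylate transporter genes Slc16a1 (MCT1), Slc16a3 (MCT4) and Slc16a7 (MCT2) had log2 fold changes of 0.062, -0.15 and -0.10, with adjusted p = 0.783, 0.668 and 0.552. The pyruvate dehydrogenase kinase genes Pdk2 and Pdk4 did not pass either. Pdk2 had 89.1 to 103 CPM in PMCA IP libraries and 74.0 to 86.2 in control IP libraries (log2 fold change 0.22, SE 0.072, adjusted p = 0.0597), and Pdk4 had 87.1 to 91.7 and 74.1 to 90.9 CPM (log2 fold change 0.083, SE 0.071, adjusted p = 0.442).

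Glycogen genes moved in both directions. Gys1 (chromosome 7, 45434839 to 45456617), the glycogen synthase of muscle and brain, had 56.6, 58.7, 57.2 and 54.4 CPM in PMCA IP libraries, against 41.2, 49.1, 51.6 and 47.8 in control IP libraries. It was 19.99% higher in PMCA mice, and the groups did not overlap (log2 fold change 0.26, SE 0.075, adjusted p = 0.0359). Gbe1 (chromosome 16, 70313949 to 70569720), which adds the branches to the glycogen chain, had 34.4, 37.4, 37.3 and 37.7 CPM in PMCA IP libraries. In control IP libraries it had 46.6, 54.4, 57.8 and 53.1 CPM. It fell by 30.5%, the largest fall among the 33 genes in this fit (log2 fold change -0.53, SE 0.075, adjusted p = 0.00310). The gene that supplies UDP-glucose for glycogen, Ugp2, and the glycogen-targeting phosphatase subunit gene Ppp1r3c had log2 fold changes of -0.046 and -0.070 (adjusted p = 0.783 and 0.658). The phosphorylase genes, whose enzymes release glucose units from glycogen, did not pass: Pygb (brain form) -0.11 (adjusted p = 0.520) and Pygm (muscle form) -0.39 (adjusted p = 0.0701).

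**Figure D2:**
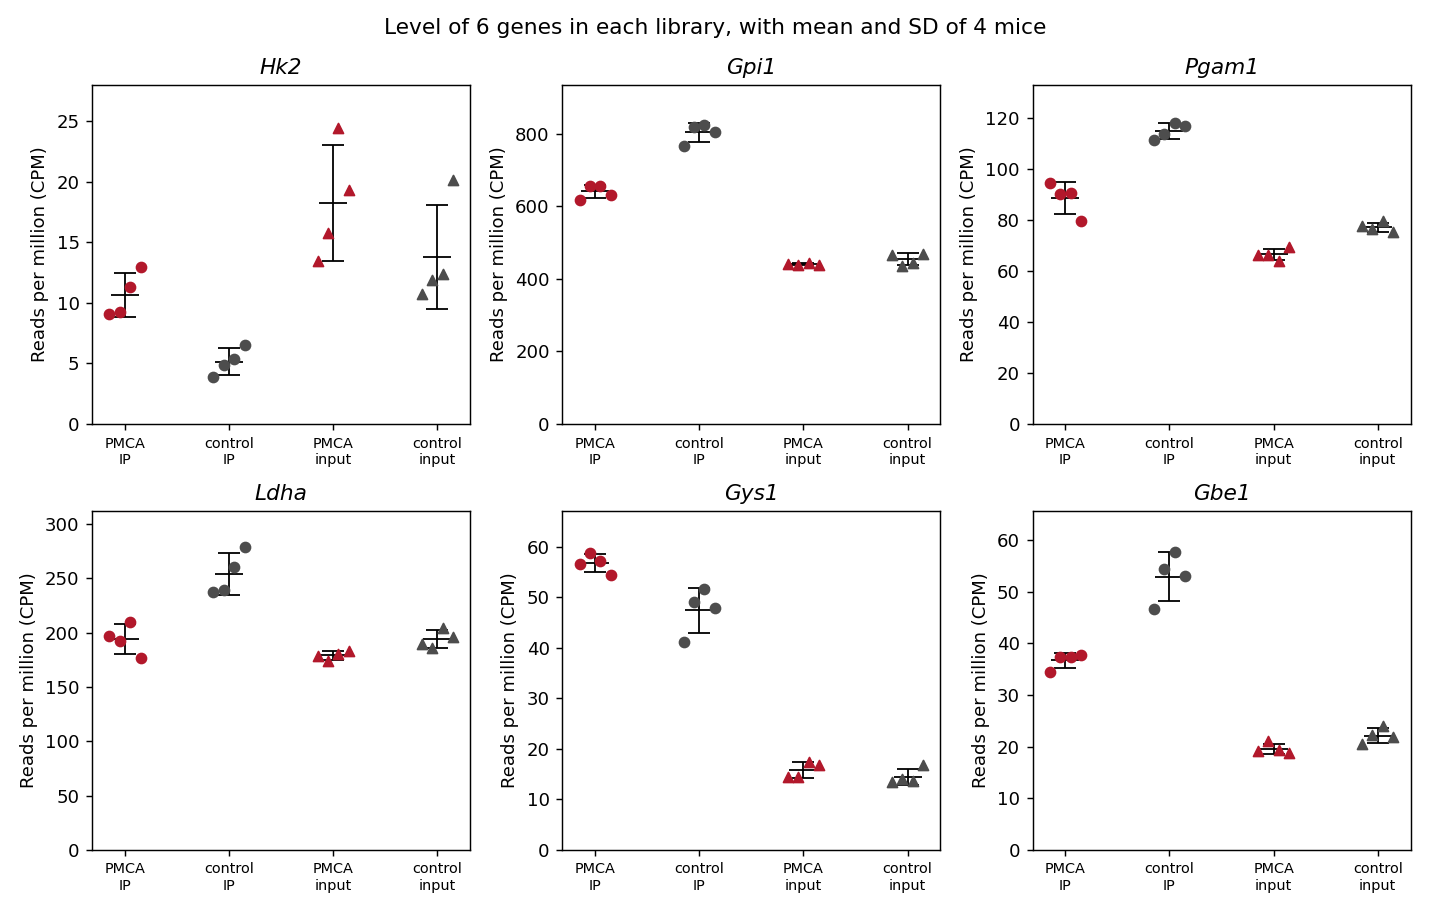
Level of 6 genes in each library, in CPM after the authors' library scaling (y axes, linear, from 0). Circles are IP and triangles input, PMCA in red and control in grey, and black marks show the mean and SD of 4 mice. In IP, the PMCA libraries lie wholly above control for Hk2 and Gys1 and wholly below for Gpi1, Pgam1, Ldha and Gbe1; in input only Pgam1 and Ldha show groups that do not overlap.

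Of the 12 calls in IP, those of Hk2, Gpi1, Tpi1, Pgam1, Ldha and Gbe1 held in all 15 alternative fits, and that of Eno2 in all but 1. With the sets of animal numbers described next as a block, control 4 placed by its source name, 5 genes fell and 1 rose, and without control 2 or PMCA 1 the count of falls was 6. Pgk1 and Eno1 lost their call without any 1 of control 2, 3 or 4 or PMCA 1, 2 or 3, with adjusted p up to 0.0926 and 0.0821, Gys1 without any 1 of control 2 or 4 or PMCA 1, 2 or 3 (up to 0.0927), Aldoa without control 2 or PMCA 1 (up to 0.0556), and Pkm without any 1 mouse other than control 4 (up to 0.103). By the numbers in their titles the mice form 2 sets, low (PMCA 1 and 2, control 1 to 3) and high (PMCA 3 and 4, control 4). All 12 genes had the same direction within each set. Since their PMCA and control IP libraries did not overlap, any split of the mice gives that outcome, so it is no further check of the calls. For Hk2, the difference was 0.98 in the low set and 0.90 in the high set on the log2 scale, and the high set holds only 1 control mouse.

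The second comparison asked the same of the whole lysate. Of the 33 genes 1 fell in PMCA inputs and 0 rose, where 0.0797% of 16306 genes fell and 0.362% rose. The gene that fell was Pgam1, with 66.2, 66.5, 64.2 and 69.5 CPM in PMCA inputs, against 77.6, 76.6, 79.6 and 75.3 in control inputs. The groups did not overlap, and the mean fell by 13.9% (log2 fold change -0.22, SE 0.040, adjusted p = 0.0485). That call held in 3 of the 15 alternative fits, and the adjusted p reached 0.185 without PMCA 3. Of the others, 10 had an unadjusted p under 0.05, but the share of all genes at that p was not counted, so the 10 are not read as a difference. Hk2 had 13.4, 15.8, 24.4 and 19.3 CPM in PMCA inputs, against 10.8, 11.9, 12.4 and 20.1 in control inputs, and the groups overlapped through the fourth control mouse (log2 fold change 0.41, SE 0.21, adjusted p = 0.300). Without that mouse 5 genes passed: Hk2 (0.61, adjusted p = 0.0380), Pgam1, Pfkm, Eno2 and Pygm, the last 4 lower, and 935 genes rose and 415 fell over the whole table, against 59 and 13 with all 8 mice. Ldha had 178, 174, 180.5 and 183 CPM in PMCA inputs, against 189.5, 186, 205 and 196 in control inputs (log2 fold change -0.12, SE 0.039, adjusted p = 0.155). Its groups did not overlap but the gene did not pass. Gpi1 had 438 to 445 and 435 to 469 CPM (log2 fold change -0.040, SE 0.035, adjusted p = 0.561), and Gbe1 18.7 to 21.0 and 20.5 to 24.0 CPM (log2 fold change -0.18, SE 0.065, adjusted p = 0.181).

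Whether the PMCA effect differed between the fractions was tested directly, as the difference between the effect in IP and that in input over all 16 libraries. Gpi1 passed, with a lower effect in IP than in input (difference in log2 fold change -0.29, SE 0.068, adjusted p = 0.0417). Thus 1 of the 33 genes was lower and 0 were higher, where 1.06% and 0.972% of 16673 genes were. With the mouse as a block, since both libraries of a mouse share the animal, Gpi1 no longer passed (adjusted p = 0.0844), and Hk2 (0.65, adjusted p = 0.0389) and Gbe1 (-0.35, adjusted p = 0.0389) did. The Gpi1 call held in 5 of 8 other settings and, with a mouse left out, only without control 1 (adjusted p up to 0.161). Each mouse gives these values as its ratio of IP to input. For Gpi1 the ratio was 1.40, 1.497, 1.48 and 1.44 in PMCA mice, against 1.65, 1.88, 1.86 and 1.72 in control mice. For Gbe1 it was 1.79, 1.78, 1.93 and 2.02 in PMCA mice, against 2.27, 2.44, 2.41 and 2.44 in control mice. Hk2 had a ratio of 0.676, 0.588, 0.464 and 0.669 in PMCA mice and 0.358, 0.411, 0.432 and 0.324 in control mice. None of these 3 sets of ratios overlapped between treatments. For the other genes that changed in IP, the difference between fractions did not pass in the fit without the block, with adjusted p = 0.115 for Ldha, 0.133 for Eno1, 0.164 for Eno2 and 0.282 for Pgam1.

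The comparison of IP with input asked how the pathway is divided between astrocyte ribosomes and the striatum as a whole. In PMCA mice 26 genes were higher in IP and 5 lower, and in control mice 27 were higher and 5 lower. Among all genes tested, 37.4% were higher and 39.3% lower in PMCA mice, and 39.1% were higher and 38.4% lower in control mice. The 33 genes together took 13927 to 16291 CPM in PMCA IP libraries and 7423 to 7669 CPM in PMCA inputs, and 15762 to 18180 and 7803 to 8113 CPM in control mice. The highest log2 fold changes in both treatments were those of Pdk4, Aldoc, Pygb, Pygm and Ppp1r3c. Without the authors' scaling factors the median of all genes moved to -0.35 in PMCA and -0.28 in control mice, and the split became 21 higher and 8 lower in PMCA mice and 23 and 6 in control mice. Under that scaling the calls of Pfkp, Aldoa, Tpi1, Pgam1 and Pkm as higher in IP were lost in PMCA mice, and those of Pfkp, Tpi1, Pkm and Ldha in control mice. In PMCA mice Pfkp (-0.15), Pfkfb2 (-0.29) and Ldha (-0.19) then passed as lower, as did Pfkfb2 (-0.28) in control mice.

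**Figure D3:**
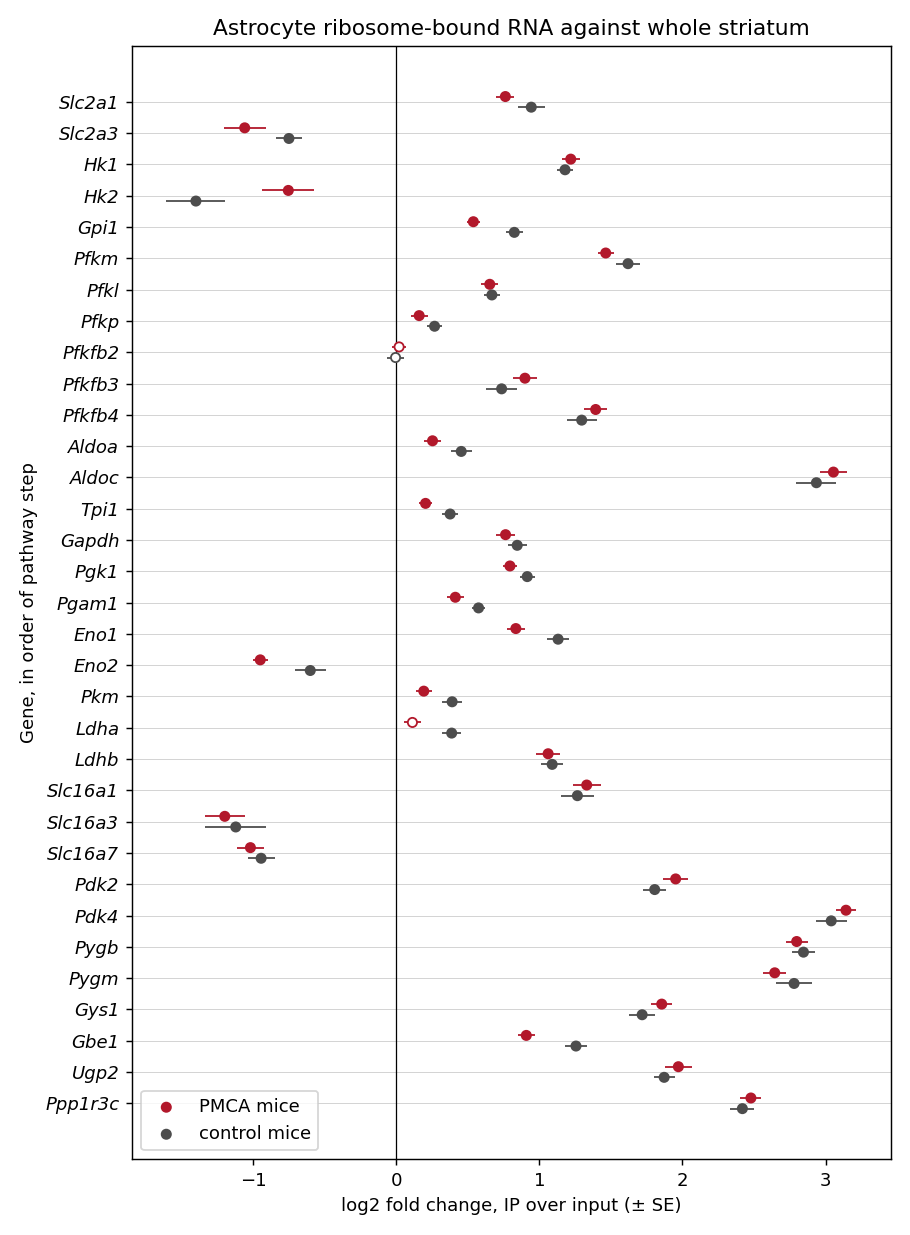
Log2 fold change of each of the 33 genes (rows, in order of pathway step), IP over input, in PMCA mice (red) and control mice (grey). Points are estimates and bars ± SE with 4 mice per treatment; filled points passed an adjusted p of 0.05. Aldoc, Pdk4, Pygb, Pygm and Ppp1r3c lie farthest right, and Slc2a3, Hk2, Eno2, Slc16a3 and Slc16a7 lie left of 0.

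Glycogen genes were enriched in astrocyte ribosomes in every mouse. The phosphorylase gene Pygb had 1321, 1319.8, 1155 and 1045 CPM in PMCA IP libraries, against 168, 177, 173 and 174 in PMCA inputs. The control mice had 1211, 1423, 1424 and 1159 CPM in IP, against 189, 170.1, 175 and 189.7 in input. IP exceeded input 6.02 to 7.85 times in single PMCA mice and 6.11 to 8.37 times in control mice (log2 fold change 2.80, SE 0.077, adjusted p = 4.38e-10 in PMCA mice). The other phosphorylase gene, Pygm, had 112, 99.6, 97.6 and 85.4 CPM in PMCA IP libraries, against 16.2, 15.2, 15.1 and 16.3 in PMCA inputs. Control mice had 111, 137, 165 and 108 CPM in IP, against 21.1, 17.9, 18.4 and 17.5 in input, so the log2 fold change was 2.65 in PMCA mice and 2.78 in control mice. Ppp1r3c, whose product brings a phosphatase to glycogen, had 342, 325, 307 and 271 CPM in PMCA IP libraries, against 56.6, 59.0, 53.4 and 53.8 in PMCA inputs. In control mice, values were 279, 349.6, 363 and 318 CPM in IP and 56.3, 63.4, 64.7 and 59.5 in input, and the log2 fold changes were 2.48 and 2.42. In each of these genes the lowest IP library was far above the highest input.

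The genes that build glycogen were enriched as well. Ugp2 had 419, 393, 364 and 309 CPM in PMCA IP libraries, against 97.1, 103, 88.8 and 87.9 in PMCA inputs, and 355, 412, 408 and 353 CPM in control IP libraries, against 101, 115, 104 and 97.2 in control inputs (log2 fold change 1.97 in PMCA and 1.87 in control mice). Gys1 had 14.4, 14.4, 17.3 and 16.9 CPM in PMCA inputs and 13.4, 13.9, 13.5 and 16.8 in control inputs, below the IP values given above by 1.86 and 1.72 on the log2 scale. Gbe1 had 19.2, 21.0, 19.3 and 18.7 CPM in PMCA inputs and 20.5, 22.3, 24.0 and 21.8 in control inputs, and its log2 fold change was 0.91 in PMCA mice and 1.26 in control mice. All 6 glycogen genes were thus higher in IP in both treatments, where 37.4% of all genes tested were higher in PMCA mice and 39.1% in control mice. None of the 6 overlapped between fractions, but the share of all genes that did not overlap was not counted.

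Aldoc was among the most enriched of the glycolytic genes. It had 559.8, 534, 499 and 513 CPM in PMCA inputs and 545, 551, 616 and 473 in control inputs, far below its IP values, and IP exceeded input 7.17 to 8.78 times in PMCA mice and 6.68 to 8.56 times in control mice (log2 fold change 3.06, SE 0.092, adjusted p = 7.23e-10 in PMCA and 2.94, SE 0.14, adjusted p = 1.35e-08 in control mice). Aldoc reads were 26.4% to 30.2% of the reads of the 33 genes in PMCA IP libraries and 6.73% to 7.30% in PMCA inputs, and 21.6% to 28.3% and 6.06% to 7.59% in control mice. Pfkm had 806, 798, 782 and 704 CPM in PMCA IP libraries, against 277, 276, 279.6 and 287 in PMCA inputs, and 865, 980.2, 1042 and 822 in control IP libraries, against 307, 301, 308 and 286 in control inputs. Its log2 fold change, 1.46 in PMCA and 1.62 in control mice, was above that of Pfkl (0.65 and 0.67) and Pfkp (0.16 and 0.27). Pfkfb4 had 32.3, 32.6, 35.8 and 38.0 CPM in PMCA IP libraries, against 11.8, 13.3, 14.1 and 13.5 in PMCA inputs, and 30.4, 33.7, 33.6 and 33.9 in control IP libraries, against 13.8, 12.3, 11.5 and 16.5 in control inputs. Pfkfb2 did not pass in either treatment, with log2 fold changes of 0.020 and -0.0052.

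The hexokinases and glucose transporters split between the fractions. Hk1 had 556, 537, 564 and 488 CPM in PMCA IP libraries, against 220.8, 217, 242 and 241 in PMCA inputs, and 508, 512, 531 and 526 in control IP libraries, against 231, 214, 232 and 240.3 in control inputs. It was higher in IP by 1.22 and 1.18 on the log2 scale. Hk2 went the other way, with a log2 fold change of -0.75 in PMCA mice (adjusted p = 0.00319) and -1.40 in control mice (adjusted p = 8.87e-05). The median log2 fold change of the 12 microglial markers, for comparison, was -4.48 in PMCA mice and -5.54 in control mice. Slc2a1 was higher in IP (0.76 and 0.94). Slc2a3 had 60.3, 62.6, 61.0 and 101 CPM in PMCA IP libraries, against 138, 147, 145 and 149 in PMCA inputs, and 109.9, 82.0, 79.9 and 83.7 in control IP libraries, against 151, 149, 149 and 144 in control inputs. Its values were lower in IP in each mouse (-1.06 and -0.75).

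Of the later enzymes, Eno2 was lower in IP (-0.95 in PMCA and -0.60 in control mice). It had 848, 813, 780.3 and 803 CPM in PMCA inputs and 928, 881, 887 and 842 in control inputs. Eno1 was higher in IP (0.84 and 1.13), with 10.6, 9.59, 9.94 and 10.6 CPM in PMCA inputs and 10.1, 9.48, 10.2 and 10.6 in control inputs. The general neuronal markers, by comparison, had a median of -0.87 in PMCA mice and -0.33 in control mice, with 9 and 8 of 12 lower in IP. Gapdh, Pgk1, Pgam1, Tpi1, Aldoa, Pkm and Gpi1 were higher in IP in both treatments, with log2 fold changes of 0.19 (Pkm) to 0.79 (Pgk1) in PMCA mice and 0.38 (Tpi1) to 0.92 (Pgk1) in control mice. Without the scaling factors Aldoa (-0.053), Tpi1 (-0.10), Pkm (-0.11) and Pgam1 (0.11) passed in neither direction in PMCA mice, nor did Tpi1 (0.10) and Pkm (0.11) in control mice. The Pkm call in PMCA mice was also lost without any 1 of PMCA 1, 2 or 3 (adjusted p up to 0.0895).

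Lactate genes also divided between the fractions. Ldhb had 837, 795, 739 and 659 CPM in PMCA IP libraries, against 393, 379, 331 and 347 in PMCA inputs, and 820.4, 900.4, 878 and 763 in control IP libraries, against 412, 412, 403 and 353 in control inputs (1.06 and 1.09 on the log2 scale). Ldha did not pass in PMCA mice (0.11, SE 0.057, adjusted p = 0.0934) and was higher in IP in control mice (0.39, SE 0.064, adjusted p = 0.000226), a call lost without the scaling factors (0.11, adjusted p = 0.137). Slc16a1 had 121, 125, 134 and 166 CPM in PMCA IP libraries, against 49.9, 51.7, 57.0 and 57.1 in PMCA inputs. In control mice it had 104, 125, 134 and 162 in IP, against 53.8, 48.0, 55.6 and 59.0 in input, so this transporter was higher in IP by 1.33 and 1.27. Slc16a7 had 8.74, 8.32, 9.49 and 7.86 CPM in PMCA IP libraries, against 19.3, 18.3, 17.3 and 15.01 in PMCA inputs. The control mice had 10.9, 8.39, 8.26 and 9.54 in IP, against 17.9, 17.9, 17.1 and 18.0 in input (-1.02 and -0.94). Slc16a7 (MCT2) is known as the neuronal form of the transporter. Slc16a3 (MCT4), known from astrocytes, was also lower in IP: it had 2.47, 2.54, 3.37 and 3.32 CPM in PMCA IP libraries, against 5.79, 6.42, 7.44 and 7.08 in PMCA inputs. Control mice had 3.65, 2.54, 2.43 and 4.75 in IP, against 7.18, 6.13, 6.31 and 8.68 in input (-1.20 and -1.12).

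The 2 pyruvate dehydrogenase kinase genes of the set were enriched. Pdk4 had 91.7, 87.1, 89.9 and 88.4 CPM in PMCA IP libraries, against 11.1, 8.98, 10.6 and 9.82 in PMCA inputs. In control mice, values were 74.1, 89.2, 90.9 and 83.9 in IP, against 10.5, 8.44, 12.2 and 10.1 in input. Its log2 fold changes, 3.14 and 3.04, were the highest estimates of the 33 genes in both treatments, with Aldoc next (3.06 and 2.94), a difference smaller than the SE of Aldoc in each. Pdk2 had 103, 92.3, 89.1 and 89.6 CPM in PMCA IP libraries, against 28.1, 23.1, 21.3 and 24.4 in PMCA inputs. In control mice it had 74.0, 83.6, 86.2 and 78.1 in IP, against 25.9, 20.8, 24.0 and 21.5 in input (1.95 and 1.81). Outside the set, Pdk3 was lower in IP, with 27.4 to 30.8 CPM against 43.1 to 44.9 in PMCA mice. In control mice Pdk3 had 32.5 to 37.0 CPM in IP, against 43.9 to 48.6 in input. Pdk1 was higher in IP, with 76.3 to 86.1 CPM against 42.1 to 49.7 in PMCA mice. In control mice Pdk1 had 67.8 to 75.6 CPM in IP, against 40.1 to 46.9 in input.

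The balance of isozymes within a library does not depend on how libraries are scaled, and 11 pairs were compared in each fraction. The ratio of Hk2 reads to Hk1 reads was 0.0163, 0.0173, 0.0201 and 0.0265 in PMCA IP libraries, against 0.00758, 0.00954, 0.0101 and 0.0124 in control IP libraries (difference of mean log2 ratio 1.01, exact permutation p = 0.0286, adjusted p = 0.269). The ratio of Pygm to Pygb was 0.0851, 0.0755, 0.0845 and 0.0817 in PMCA IP libraries, against 0.0916, 0.0965, 0.116 and 0.0936 in control IP libraries (difference of mean log2 ratio -0.28, exact permutation p = 0.0286, adjusted p = 0.269). In both pairs the groups did not overlap, but no pair passed after adjustment over the 22 tests; with 4 against 4 libraries the smallest p the exact two-sided test allows is 0.0286. The ratio of Ldhb to Ldha was 4.26, 4.14, 3.52 and 3.73 in PMCA IP libraries and 3.45, 3.76, 3.37 and 2.74 in control IP libraries, where the groups overlapped. The ratio of Aldoc to Aldoa was 3.36, 3.04, 2.81 and 2.64 in PMCA IP libraries and 1.99, 2.61, 2.78 and 1.74 in control IP libraries, and also overlapped. In inputs the Aldoc to Aldoa ratio was 0.441, 0.436, 0.405 and 0.410 in PMCA mice and 0.389, 0.424, 0.450 and 0.348 in control mice, below every IP library. These are ratios of reads, not of transcripts, since transcript lengths were not at hand.

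**Figure D4:**
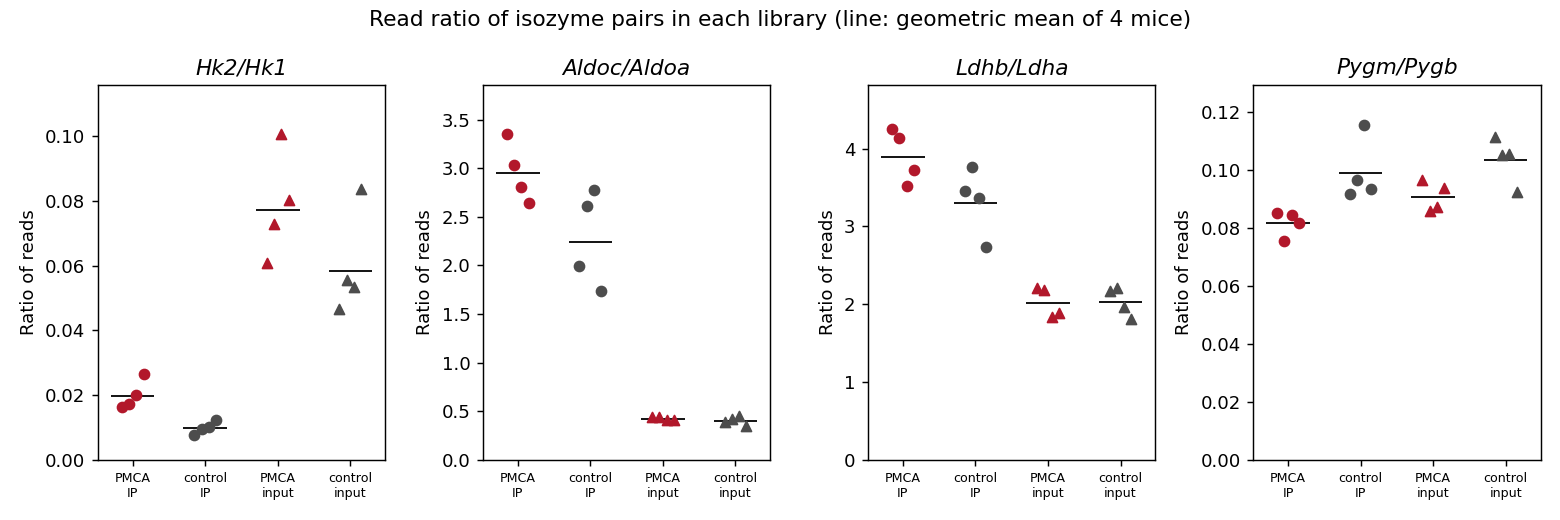
Ratio of reads of 4 isozyme pairs in each library (y axes, linear, from 0), with the geometric mean of 4 mice as a line. Circles are IP and triangles input, PMCA in red and control in grey; Hk2/Hk1 and Pygm/Pygb do not overlap between PMCA and control IP libraries, and Aldoc/Aldoa is higher in every IP library than in any input.

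Other genes of the pathway were followed through 6 lists of 102 genes, of which 100 were in the files and 93 were tested in IP. Of these, 13 fell (14.0%) and 5 rose (5.38%) in PMCA IP libraries, against 10.1% and 9.54% of all genes. Lactate and pyruvate genes held 9 of these calls, with 7 of 20 lower and 2 higher. Dlat, a subunit of the pyruvate dehydrogenase complex, had 124 ± 5.02 CPM in PMCA IP libraries and 156 ± 6.12 in control IP libraries (SD, n = 4 each; log2 fold change -0.33, SE 0.058, adjusted p = 0.00538). Ldhd, which oxidises D-lactate, had 18.5 ± 1.73 and 13.1 ± 0.544 CPM (log2 fold change 0.50, SE 0.084, adjusted p = 0.00500), and the monocarboxylate carrier relative Slc16a4 had 1.92 ± 0.338 and 0.793 ± 0.241 CPM (log2 fold change 1.30, SE 0.23, adjusted p = 0.00636), both higher in PMCA mice. Dlat was also the 1 gene of these lists whose PMCA effect differed between IP and input (-0.27, SE 0.065, adjusted p = 0.0424).

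Glycogen genes outside the set gave 2 higher and 1 lower of 26. Ppp1r3d, another glycogen-targeting subunit, rose (log2 fold change 0.60, SE 0.11, adjusted p = 0.00645), as did the liver phosphorylase gene Pygl (log2 fold change 0.45, SE 0.12, adjusted p = 0.0249), and Gaa, the lysosomal glucosidase that degrades glycogen, fell (log2 fold change -0.29, SE 0.063, adjusted p = 0.0133). Of 14 genes in the list of other glycolytic and related genes 1 rose and 2 fell. The one that rose was Hk3, a hexokinase, with 0.520, 0.971, 1.88 and 1.34 CPM in PMCA IP libraries, against 0.434, 0.482, 0.245 and 0.398 in control IP libraries (log2 fold change 1.48, SE 0.39, adjusted p = 0.0266). Those that fell were Pgam5 (log2 fold change -0.30, SE 0.078, adjusted p = 0.0238) and Minpp1 (log2 fold change -0.19, SE 0.060, adjusted p = 0.0453). Neither encodes an enzyme of the glycolytic steps themselves, so these falls add no glycolytic gene to those of the set. In control mice Hk3 had a log2 fold change of -3.96 for IP over input, and the microglial marker sums of the IP libraries are given above. The part of microglial RNA in the Hk3 and Hk2 values was not tested. The pentose phosphate enzymes Tkt (-0.36, adjusted p = 0.0160) and Taldo1 (-0.46, adjusted p = 0.0309) fell, as 2 of 14 genes of that list. Of 12 regulators 1 passed, Hif1a, the oxygen-labile subunit of hypoxia-inducible factor, with 126 ± 2.87 CPM in PMCA IP libraries and 152 ± 9.42 in control IP libraries (log2 fold change -0.27, SE 0.061, adjusted p = 0.0160). None of 7 other glucose transporter and uptake genes passed. In inputs 0 of 92 genes of these lists passed in limma, where 0.0797% of all genes tested fell and 0.362% rose. An unadjusted limma p under 0.05 was found for 24 of the 92. The share of all genes at that p was not counted, so the 24 are not read as a difference.

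The 6 lists were also compared between fractions. In PMCA mice 54 of 94 genes were higher in IP and 23 lower, and in control mice 59 of 93 were higher and 18 lower. The shares of all genes were 37.4% higher and 39.3% lower in PMCA mice, and 39.1% and 38.4% in control mice. The phosphorylase kinase genes Phka1 (2.73 and 2.86) and Phkg1 (2.59 and 2.58), whose enzyme activates phosphorylase in a calcium-dependent way, were higher in IP (log2 fold changes in PMCA and in control mice). Their relatives Phka2 and Phkg2 showed no difference of that size. Phka2 had 25.6 to 28.04 CPM in PMCA IP libraries, against 23.3 to 28.3 in PMCA inputs. In control mice Phka2 had 25.1 to 27.4 CPM in IP, against 22.2 to 24.6 in input. Phkg2 had 16.8 to 18.9 CPM in PMCA IP libraries, against 18.6 to 20.3 in PMCA inputs. In control mice Phkg2 had 17.4 to 19.99 CPM in IP, against 18.5 to 19.5 in input. Glycogen genes of the list were higher in IP in 15 of 26 cases in PMCA mice and 18 of 26 in control mice. Pdha1 (1.16 and 1.13) and Pcx (1.29 and 1.29), the pyruvate carboxylase gene, were higher as well.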

How the data were processed

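RNA was sequenced from whole-striatum lysate (input) and from RNA on tagged astrocyte ribosomes (IP) of 8 mice. An RNeasy kit, RiboZero Gold and stranded TruSeq libraries were used, per the labels' protocols. Per the submitters' processing notes, STAR, HTSeq, edgeR and limma were used on mm10. Roles, versions and settings of these tools: not given in the sources used here. For each of 20730 genes, the authors deposited a log2 CPM value. Undoing the log2 scale and the prior count of 0.25 gave whole reads for every value (tolerance 0.001), and hence the authors' library sizes. CPM printed here are these reads divided by the scaled library size in M reads. A read count sets a floor on precision that is small here, and the number of mice limits it more.

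A gene was tested where at least 4 libraries of the comparison reached the CPM equal to 10 reads at median depth, and all together held 15 reads. Limma (version 3.58.1, R 4.3.3) was fitted with a mean-variance trend on the deposited log2 CPM, two-sided, with Benjamini-Hochberg adjustment over all genes tested. The fit was also run on simulated counts with the same dispersion between replicates for every gene. Real mice differ in other ways, so that run does not measure how well the calls hold here. Isozyme read ratios were compared by exact permutation over libraries. Alternatives were total-read scaling, a prior count of 2, no filter, voom weights, no trend, the animal-number set or the mouse as a block, and leaving out each mouse. IP and input of a mouse are paired by the labels: their deviations from the group means correlated with r of 0.114 to 0.327 (8 pairs), against -0.195 to 0.0778 between mice (24 pairs). Control 4 has different animal numbers in its title and source name, and both placements were tried. Positions and promoters are from RefSeq (GRCm38.p6, the assembly behind mm10).

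The 33 genes and the lists were chosen with earlier results of these data known. Values in every sample are given for genes called between PMCA and control mice or with an absolute log2 fold change of at least 1 between fractions. Other pathway genes are counted by list, with at most 3 named per list and comparison. Pdk1, Pdk3, Phka2 and Phkg2 are given besides as relatives of named genes. Transcript lengths were not at hand, so levels of different genes are not compared.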

Additional observations from a re-analysis of the deposited data

Results flagged for a closer look

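In 132 groups of 4 libraries, 6 values stood apart from the rest of their group by Dixon's criterion, where chance flags about 1 in 20 groups. Slc2a3 was high in the fourth PMCA IP library, at 100.9 CPM against 60.3 to 62.6 in the others, and in the first control IP library, at 109.9 CPM against 79.9 to 83.7. Gbe1 was low in the first PMCA IP library, at 34.4 CPM against 37.3 to 37.7. Pfkfb4 was low in the first control IP library, at 30.4 CPM against 33.6 to 33.9. Ldhb was low in the fourth control input, at 353 CPM against 403 to 412. Gys1 was high in the fourth control input, at 16.8 CPM against 13.4 to 13.9.

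The PMCA effect on Gpi1 differed between IP and input by -0.29 on the log2 scale (adjusted p = 0.0417, limma), and the difference no longer passed with the mouse as a block.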

How the results depend on the processing

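In IP, the count of genes higher was 1 without the filter, without the trend and with the animal-number set by source name as a block (Gys1 was lost in each) and 3 with the set by title (Pdk2 was added), against 2, and 1 to 3 with a mouse left out. The count lower was 5 with the set by source name, against 10, and 6 to 10 with a mouse left out. In inputs, the count lower was 0 with total reads, no filter, voom, no trend and the set by source name, against 1, and 0 to 4 with a mouse left out, and the count higher was 0 to 1. Between IP and input in PMCA mice, 8 genes were lower with total reads, against 5. Among genes called higher, the log2 fold changes under total reads of Pfkp (-0.15), Aldoa (-0.053), Tpi1 (-0.10) and Pkm (-0.11) in PMCA mice and of Pfkp (-0.0084) in control mice turned negative, with the whole table shifted down. For the difference of the PMCA effect between fractions, 1 gene was higher with the mouse as a replicate block or the number set by title, against 0. The count lower was 2 with total reads, 0 without the filter and 0 with the set by source name, against 1, and 0 to 1 with a mouse left out. The mouse as a replicate block removed the call of Gpi1 (adjusted p = 0.0844) and added Gbe1 as lower and Hk2 as higher (adjusted p = 0.0389 each), and changed no other call among the 33 genes. No isozyme ratio passed, from reads or from the deposited log2 CPM. With 22 tests, 13 ratios would have had to reach the smallest p for any to pass. The other causes were not tested. Low genes such as Hk2 and Slc16a3 rest on fewer reads than the rest.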
